A study of Mus musculus with 2 samples.

Results

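Granins and the enzymes that cut, trim and amidate prohormones were measured as 10 transcripts in single islet cells of virgin and multiparous mice. They were taken by symbol out of 31053 genes, and each matched exactly 1 row of both tables. The set held the granins Chga, Chgb, Scg2 and Scg3, the helper proteins Scg5 and Pcsk1n, the convertases Pcsk1 and Pcsk2, the carboxypeptidase Cpe and the amidating enzyme Pam. Islets came from wild-type C57BL/6J females. The multipara group had gone through 3 pregnancies in a row, starting at 9 weeks of age, and its islets were taken 3 weeks after the last delivery. The control group held virgin females of matched age. Each group was a single 10x Chromium 3′ library, the labels do not say how many mice it pooled, and no replicate exists for any value below. The study describes its single-cell groups as holding more than a single mouse or sample, without tying that to a library. A difference between the libraries therefore cannot be told apart from a difference between mice or preparations.

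Endocrine cells store their peptides in dense-core granules. Granins are acidic proteins that condense there with the hormones and help the granule form. Inside the granule the convertases cut a prohormone at pairs of basic residues, Cpe removes the basic residues left behind, and Pam converts an exposed terminal glycine into an amide. In islets Pcsk1 and Pcsk2 both cut proinsulin, whereas mature glucagon is made from proglucagon by Pcsk2. Scg5 is the chaperone that Pcsk2 needs to become active, and Pcsk1n encodes proSAAS, an inhibitor of Pcsk1.

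By the GENCODE M21 annotation of GRCm38, all 10 are protein-coding genes. Their spans are Chga at chr12:102554969-102565028, Chgb at chr2:132781278-132795079, Scg2 at chr1:79434669-79440120, Scg3 at chr9:75643189-75684056 and Scg5 at chr2:113776362-113829121. The others are Pcsk1n at chrX:7919822-7924410, Pcsk1 at chr13:75089826-75134861, Pcsk2 at chr2:143546156-143816285, Cpe at chr8:64592542-64693054 and Pam at chr1:97795114-98095646. Genes on the opposite strand overlap Scg3 (Gm37871), Pcsk1n (Eras), Pcsk2 (Pcsk2os1 and Pcsk2os2) and Pam (Gm25413 and Gm24465). On its own strand, Pam also overlaps Gm37140, Gm3531 and B230216N24Rik, and how the counting settled such reads is not given in the sources used here.

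The granin and convertase promoters are known for cAMP response elements, so RefSeq promoter windows on GRCm38.p6 (250 bases before to 50 bases after the start) were searched on both strands for the palindrome TGACGTCA. Windows were found for 9 members and not for Cpe. Chgb, Scg2 and Pcsk1 held the palindrome, as did 588 of 32851 windows overall (1.79%). With the seventh base left free (TGACGTNA, which includes the palindrome) Chga was added, against 963 windows overall (2.93%). Scg3, Scg5, Pcsk1n, Pcsk2 and Pam held neither form in their windows. The same 3 palindrome-bearing genes separate α from δ cells in the levels that follow, but the motif was chosen with earlier results of these data known. The 4 stretches of 30 bases are printed as a description. Capitals mark the match, and each stretch reads 5′ to 3′ on the strand of the gene.
Chgb: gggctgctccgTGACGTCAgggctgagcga
Scg2: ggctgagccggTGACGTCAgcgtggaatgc
Pcsk1: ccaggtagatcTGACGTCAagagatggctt
Chga: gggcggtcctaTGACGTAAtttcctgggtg
These lie at chr2:132781559-132781588 (plus strand), chr1:79440076-79440105 (minus strand), chr13:75089768-75089797 (plus strand) and chr12:102554886-102554915 (plus strand). The match began 72, 68, 78 and 44 bases before the RefSeq start of Chgb, Scg2, Pcsk1 and Chga. The GENCODE spans above differ from these starts. By those spans the stretches of Chgb and Scg2 lay inside the gene, and those of Pcsk1 and Chga before it. A match of letters is a description and does not show that a factor binds there.

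UMIs (unique molecular identifiers, each tagging 1 captured molecule) numbered 94853806 over 5463 barcodes for virgin and 82503776 over 5075 barcodes for multiparous mice. After the cell filter of the study and removal of called doublets, 4330 and 3330 cells remained. Before these steps 7 barcode sequences occurred in both libraries, and 3 did among the kept cells. A cell was gated as α (Gcg), β (Ins1 and Ins2), δ (Sst) or PP (Ppy) when that hormone gave at least 5% of its UMIs and at least 70% of the UMIs of these 4 hormones. This gave 1079 and 672 α cells, 1875 and 1719 β cells, 269 and 248 δ cells and 97 and 100 PP cells in the virgin and multipara library. The own hormone took 36.7% and 38.8% of all UMIs in α cells, 56.5% and 57.8% in β cells, 19.2% and 20.9% in δ cells and 41.1% and 43.7% in PP cells. Levels are given as CPM, the UMIs of a gene per 1000000 UMIs of the gated cells, and log2 ratios on that scale are followed, where the scale matters, by the ratio with hormone UMIs left out of the total. Intervals in brackets are exact 95% intervals and cover counting error only.

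The gates were checked against marker lists. The 7 immune markers summed to between 1.18 and 40.1 CPM in the gated endocrine cells, against 4653 and 5690 in immune cells. The 7 endothelial markers summed to between 9.30 and 98.1 against 15993 and 16036 in endothelial cells, and the 6 stromal markers to between 0.393 and 29.7 against 15015 and 10952 in stromal cells. In δ cells of the multipara library 2 of 7 immune and 1 of 6 stromal markers had any UMI, with Ptprc, Cd3e, Col1a1 and Dcn at 0. The δ gate was the least clean: Ppy and Pyy summed to 67175 and 59215 CPM there and the 9 β cell markers to 32177 and 41100, and 36 and 34 of its cells lay just inside the 70% limit, with 42 and 27 just outside it. The 6 acinar and ductal markers summed to between 3.63 and 446 CPM, highest in PP cells at 362 and 446, of which Spp1 gave 345 and 422. Stricter and looser gates were run, and calls that they moved are given beside them. The part of these markers in the results was otherwise not tested. Free RNA was read from immune cells (405 and 143 cells, median 3891 and 6263 UMIs). Leaving Pcsk1 aside, the level of a member in immune cells was between 0.633% and 14.5% of its level in an endocrine type of the same library, highest for Scg2 in α cells.

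Chga, which encodes chromogranin A, was highest in α and β cells. α cells held 7795 CPM (7754 to 7836) for virgin and 6564 (6518 to 6610.4) for multiparous mice, and each pair of values below is in that order. In β cells it was 7553 (7530 to 7576) and 6246 (6223 to 6268). Levels were lower in δ cells, at 4221 and 3548, and lowest in PP cells, at 3337 and 2291. On this scale the order α, β, δ, PP was the same in both libraries, but it depended on the scaling. The log2 ratio of α to β cells was 0.05 and 0.07, and with hormone UMIs left out of the total it turned to −0.50 and −0.44. That of δ to PP cells was 0.34 and 0.63, and turned to −0.34 and −0.10, so that δ cells and not PP cells were then lowest.

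Chgb, which encodes chromogranin B, was a δ cell transcript by comparison. It reached 3255 (3191 to 3321) and 3080.3 (3012 to 3149) CPM in δ cells. PP cells had 802 and 841, β cells 756 and 973, and α cells 640.3 and 557. The 3 types other than δ lay well below it, and the order of β and PP cells was reversed between the libraries. The log2 ratio of α to β cells was −0.24 and −0.81, and −0.78 and −1.32 with hormone UMIs left out. On that scale PP cells stood below β cells in both libraries, at −0.12 and −0.36.

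Scg2, which encodes secretogranin II, was also highest in δ cells, at 3543 (3476 to 3611) and 3701 (3627 to 3777) CPM. β cells followed with 2038 and 1971 and PP cells with 1519 and 1261. α cells were lowest, with 598 and 596. The whole order was the same in both libraries. In cells thinned to 5000 UMIs, the median was 18 Scg2 UMIs in δ cells of both libraries, 10 in β cells of both and 2 in α cells of both.

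Scg3, whose product binds chromogranin A and the granule membrane, varied least among the granins. Its levels were 774 and 668 CPM in δ cells, 659 and 511 in β cells, 585 and 637 in α cells and 443 and 408 in PP cells. α cells stood below β cells in the virgin library and above them in the multipara library. With hormone UMIs left out α cells stood below β cells in both libraries, at log2 ratios of −0.72 and −0.20. The order of these 2 types thus depended on the scaling.

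**Figure D1:**
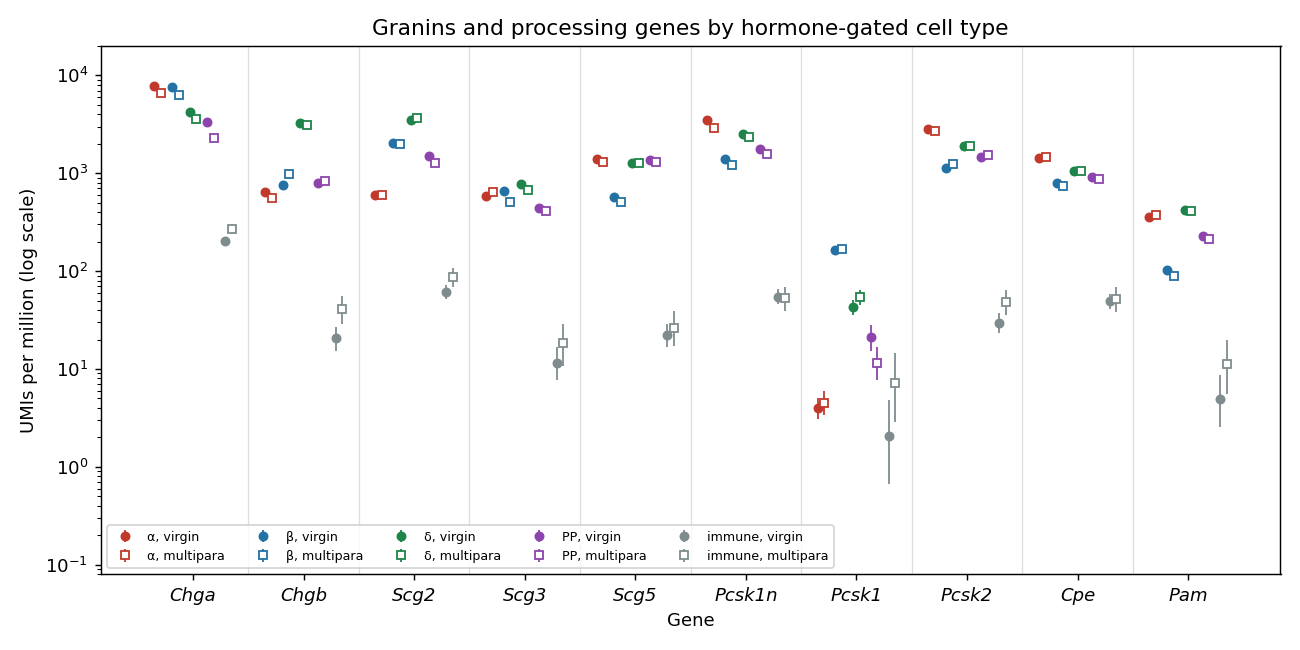
Levels of the 10 transcripts in CPM (log scale) in α, β, δ, PP and immune cells, with filled circles for the virgin and open squares for the multipara library and bars for exact 95% counting intervals. The δ cells stand out for Chgb and Scg2, the β cells for Pcsk1, and α cells lie at the level of immune cells for Pcsk1.

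Granin UMIs count 3′ ends and are not scaled by gene length, so the make-up of the granin pool can be compared between cell types. The 4 granins together had 9618 and 8353 CPM in α cells, 11006 and 9701 in β cells, 11793 and 10997 in δ cells and 6100.4 and 4802 in PP cells. Chga gave 81.0% and 78.6% of these granin UMIs in α cells and 68.6% and 64.4% in β cells, but 35.8% and 32.3% in δ cells. PP cells lay between, with 54.7% and 47.7%. In δ cells Chgb gave 27.6% and 28.0% and Scg2 30.04% and 33.7%, so that the 3 granins lay close together there. These shares do not depend on how a cell type was scaled.

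Scg5 was lowest in β cells, with 572 and 509 CPM. The other types lay close to each other, at 1398 and 1296 in α cells, 1264 and 1285 in δ cells and 1355 and 1301 in PP cells. Pcsk1n followed another order, with 3462 and 2902 in α cells, 2537 and 2342 in δ cells, 1751 and 1577 in PP cells and 1393 and 1205 in β cells. That β cells were lowest depended on the scaling, since the log2 ratio of δ to β cells was 0.87 and 0.96 with all UMIs, −0.01 and 0.08 with hormone UMIs left out, and −0.16 and −0.03 with TMM scaling. The log2 ratio of δ to PP cells also turned, from 0.54 and 0.57 to −0.14 and −0.16 with hormone UMIs left out. Per Pcsk1 UMI there were 8.54 and 7.15 Pcsk1n UMIs in β cells, 59.0 and 43.5 in δ cells and 83.4 and 136 in PP cells.

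Pcsk1, a convertase of proinsulin, separated the cell types most. β cells had 163 (160 to 167) and 169 (165 to 172) CPM, from 8659 and 8022 UMIs. δ cells had 43.0 (35.9 to 51.1) and 53.8 (45.2 to 63.6), and PP cells 21.0 (15.3 to 28.1) and 11.6 (7.66 to 16.9), from 45 and 27 UMIs. α cells had 3.99 (3.11 to 5.04) and 4.52 (3.39 to 5.91). Immune cells had 2.06 (0.669 to 4.81) and 7.12 (2.86 to 14.7) and endothelial cells 4.98 and 7.22, so the α level overlapped theirs. Immune cells were shallower than α cells, with a median of 3891 and 6263 against 16428 and 17574 UMIs. Without thinning, 1.23% and 4.90% of immune cells had a Pcsk1 UMI, against 5.56% and 6.55% of α cells. Whether the Pcsk1 UMIs of α cells were free RNA was not tested. The PP level of the multipara library also overlapped that of its immune cells, whereas the δ level stood above it in both libraries.

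The same order held for the share of cells with a Pcsk1 UMI after each cell was thinned to 5000 UMIs, which removes the difference in depth. In β cells the share was 54.0% of 1686 cells and 55.6% of 1411 cells, and without thinning 87.4% and 81.2%. In δ cells it was 15.5% and 19.9%, and without thinning 29.0% and 36.7%. In PP cells it was 14.9% and 8.25%, without thinning 29.9% and 19%. In α cells it was 2.12% and 2.21%, without thinning 5.56% and 6.55%, beside 0.662% and 4.17% in immune cells. Median depth before thinning was 29807 and 31214 UMIs in β cells, 10386 and 10413.5 in δ cells, 22206 and 22033 in PP cells and 16428 and 17574 in α cells. The δ share exceeded the immune share in both libraries, although δ cells were shallower than α cells.

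Pcsk2, the convertase of proglucagon, was present in nearly every endocrine cell, with a UMI in 99.3% of thinned β cells in both libraries and 100% of thinned α, δ and PP cells, beside 11.3% and 18.8% of immune cells. Its levels were 2847 and 2690.1 CPM in α cells, 1889 and 1878 in δ cells, 1457 and 1530.0 in PP cells and 1135 and 1243 in β cells. Taken against Pcsk2, Pcsk1 gave 12.6% (12.3 to 12.8%) and 11.9% (11.7 to 12.2%) of the UMIs of the pair in β cells. It gave 2.22% and 2.78% in δ cells, 1.42% and 0.754% in PP cells and 0.140% and 0.168% in α cells. The share does not depend on the scaling of a cell type, and its order was the same in both libraries. In thinned β cells 53.7% and 55.3% had UMIs of both convertases, 45.7% and 44.01% of Pcsk2 alone and 0.356% and 0.354% of Pcsk1 alone.

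**Figure D2:**
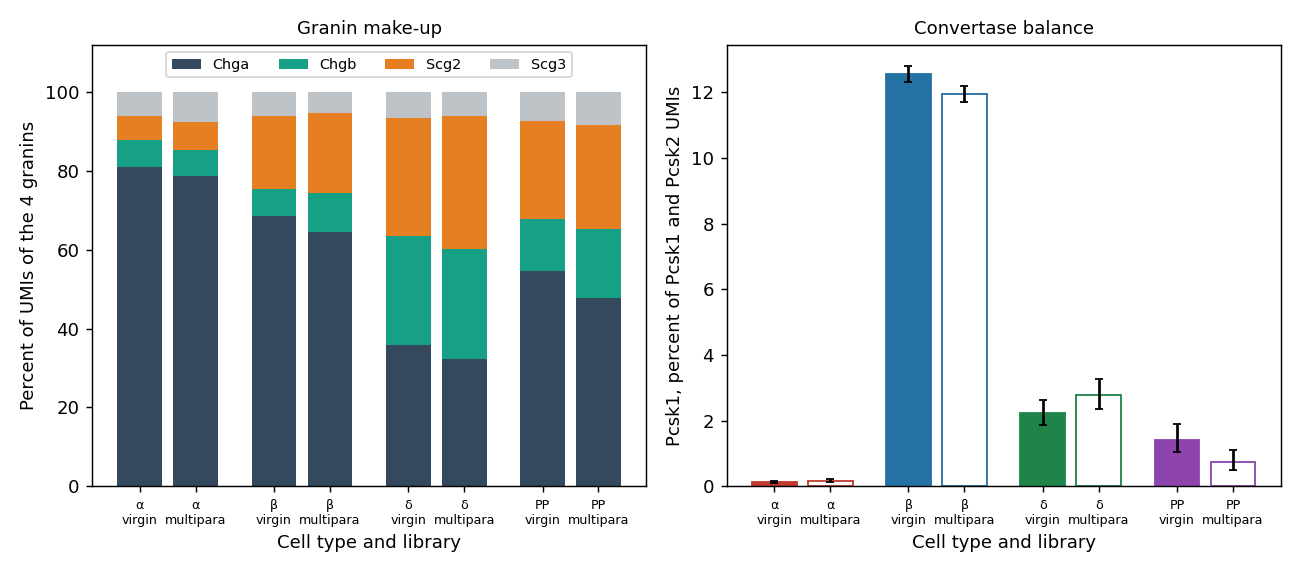
Left, percent of the UMIs of the 4 granins given by each, by cell type and library. Right, Pcsk1 as a percent of Pcsk1 and Pcsk2 UMIs with exact 95% counting intervals. Chga gives 81.0% of granin UMIs in virgin α cells and 35.8% in virgin δ cells, and the Pcsk1 share is 12.6% in virgin β cells against 0.140% in virgin α cells.

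Cpe encodes carboxypeptidase E. Its levels were 1447 and 1453 CPM in α cells, 1043 and 1046 in δ cells, 917 and 882 in PP cells and 790 and 734 in β cells. Immune cells had 49.1 and 51.9 and stromal cells 169 and 217. On the scale of all UMIs the order of the 4 endocrine types was that of Pcsk2. With hormone UMIs left out δ cells stood below PP cells for both genes. The log2 ratios of δ to PP cells were then −0.49 and −0.48 for Cpe and −0.30 and −0.43 for Pcsk2. Over the 8 sums of 4 types and 2 libraries, Pearson's r between Cpe and Pcsk2 on log2(CPM + 10) was 0.98.

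Pam encodes the enzyme that amidates pancreatic polypeptide and amylin, among others. Its levels were 421 and 409 CPM in δ cells, 362 and 379 in α cells, 226 and 215 in PP cells and 103 and 89.8 in β cells. On the scale of all UMIs the order was again the same in both libraries, with β cells lowest. With hormone UMIs left out α cells stood above δ cells in both libraries, at log2 ratios of 0.11 and 0.26. β cells stayed lowest on that scale. After thinning, 84.9% and 81.8% of δ cells, 79.9% and 82.5% of α cells, 58.6% and 62.9% of PP cells and 38.4% and 40.0% of β cells had a Pam UMI. Immune cells had 1.99% and 5.21%. Endothelial cells, with 87.5 and 72.2 CPM, came close to the β level, and stromal cells had 147 and 9.25 for the 2 libraries.

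Against β cells, 6 of the 10 members differed by at least 2-fold in the same direction in both libraries in α cells, where 16.6% of all genes with at least 100 UMIs did. Scg5, Pcsk1n, Pcsk2 and Pam were higher (4 of 10, beside 11.2% of all genes) and Scg2 and Pcsk1 lower (2 of 10, beside 5.39%). The log2 ratios were 1.29 and 1.35 for Scg5, 1.31 and 1.27 for Pcsk1n, 1.33 and 1.11 for Pcsk2 and 1.81 and 2.08 for Pam. They were −1.77 and −1.73 for Scg2 and −5.35 and −5.22 for Pcsk1. The median gene was itself higher in α cells, by 0.40 and 0.37, and the hormone transcripts took 61.5% and 62.6% of UMIs in β cells against 43.8% and 46.5% in α cells. With hormone UMIs left out, Pam at 1.27 and 1.56 stayed above 2-fold, and Scg2 and Pcsk1 stayed below it. The split was then 1 higher and 2 lower in place of 4 and 2. The shares of all genes on that scale, for α, δ and PP cells against β cells, are given below with the 37 other genes. For α cells that share, and not the 16.6% above, is the background of this split.

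In δ cells against β cells 4 of 10 members passed 2-fold in both libraries, beside 34.6% of all genes (31.5% higher and 3.06% lower), so the count was near the background. Chgb was higher by 2.11 and 1.66, Scg5 by 1.14 and 1.33 and Pam by 2.03 and 2.19 on the log2 scale, and Pcsk1 was lower, at −1.92 and −1.65. The median gene stood 0.86 and 0.85 higher in δ cells. With hormone UMIs left out, the split became 1 higher (Pam, 1.16 and 1.31) and 2 lower (Pcsk1, and Chga at −1.72 and −1.70). Chgb then gave 1.23 and 0.78, while Scg2 gave −0.08 and 0.03, so that Scg2 was not set apart from β cells on that scale. Scg3 (0.23 and 0.39), Pcsk2 (0.74 and 0.60) and Cpe (0.40 and 0.51) also turned, to −0.64 and −0.49, −0.14 and −0.29, and −0.47 and −0.37, so the place of δ above β cells for these genes held on the scale of all UMIs and not on this one.

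In PP cells against β cells 4 of 10 passed, beside 11.6% of all genes (4.55% higher and 7.05% lower). Scg5 was higher by 1.24 and 1.35 and Pam by 1.14 and 1.26, and Chga was lower at −1.18 and −1.45 and Pcsk1 at −2.96 and −3.86. With hormone UMIs left out, Pam was short of 2-fold in the virgin library, at 0.94, and the other 3 stayed past it. Pam was also short at a gate purity of 90% (0.96 in the virgin library). Chga was short in the virgin library at a purity of 50% (−0.93) and once cells with any immune, endothelial or stromal marker UMI were left out (−0.63). On the scale of all UMIs, Chga passed 2-fold against β cells in PP cells but not in α or δ cells.

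**Figure D3:**
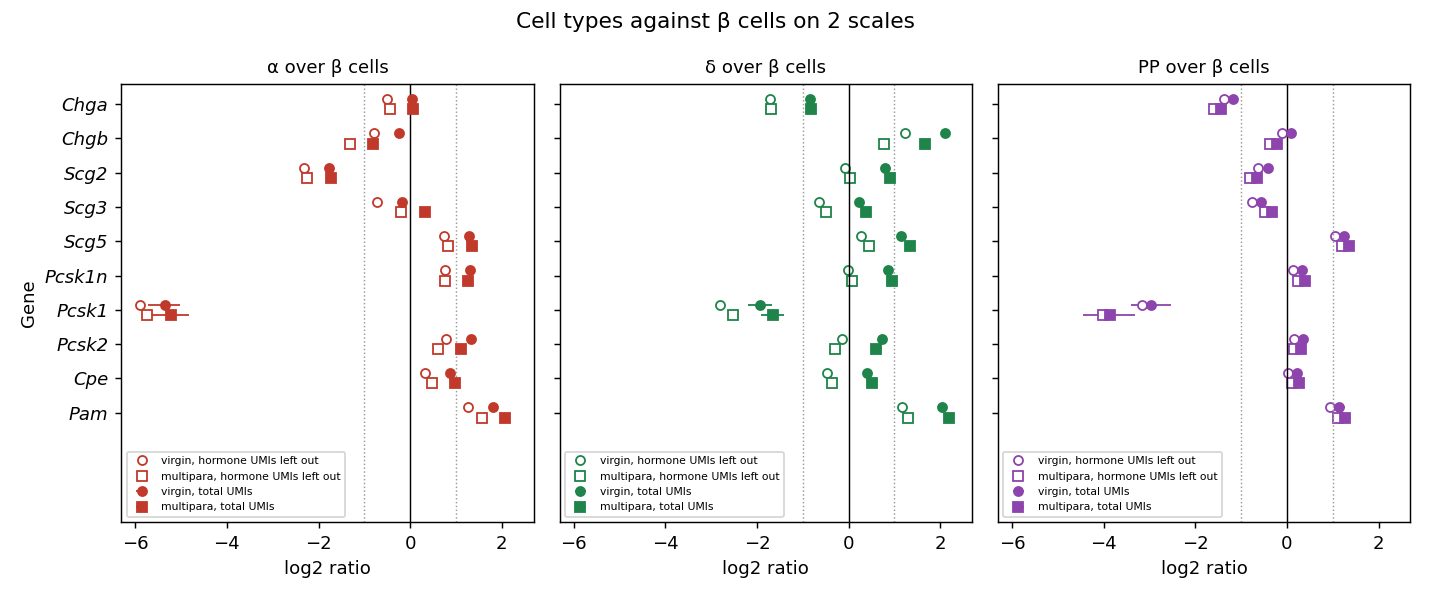
Log2 ratios of α, δ and PP cells over β cells for the 10 transcripts, with circles for the virgin and squares for the multipara library. Filled symbols use all UMIs and carry exact 95% counting intervals, open symbols leave hormone UMIs out, and dotted lines mark 2-fold. The open symbols lie to the left of the filled ones throughout, most of all in δ cells, where Scg2, Pcsk1n and Pcsk2 move to near 0.

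Against δ cells, 3 of 10 members were lower in α cells by at least 2-fold in both libraries. Of all genes 11.3% passed that fold (9.08% lower and 2.27% higher). The 3 members were those whose promoters held TGACGTCA. This motif was chosen with earlier results of these data known. Its share among all genes lower in α cells was not counted, so the match is a description. Chgb stood at −2.35 and −2.47, Scg2 at −2.57 and −2.64 and Pcsk1 at −3.43 and −3.57. No member was higher in α cells by that fold on the scale of all UMIs, and with hormone UMIs left out Chga was, from 1.22 upward, as it was at a gate purity of 90% (1.06 and 1.07). The same 3 genes were higher in δ than in PP cells in both libraries, beside 18.8% of all genes (18.3% higher and 0.533% lower), at 2.02 and 1.87 for Chgb, 1.22 and 1.55 for Scg2 and 1.03 and 2.21 for Pcsk1. The virgin Pcsk1 value rested on 45 UMIs in PP cells (0.53 to 1.56), and it was short of 2-fold without the cell filter of the study (0.93) and in thinned cells (0.30). At a gate purity of 90% Pam was added (1.09 and 1.06). On the scale without hormone UMIs Chgb alone kept 2-fold between δ and PP cells. α and PP cells differed in 2 of 9 members, Chga higher in α cells (1.22 and 1.52) and Scg2 lower (−1.35 and −1.08), beside 4.46% of all genes (3.88% higher and 0.577% lower). Scg2 was short of 2-fold once the PP cells with Iapp, described below with Chga, were left out. Chga was short in the virgin library with hormone UMIs left out (0.88), at a gate purity of 50% (0.96) and without cells holding other markers (0.74).

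Between the libraries, no member differed by 1.5-fold in α, β or δ cells (0 of 10 each), where 3.21%, 5.37% and 3.27% of all genes did. Of all genes 0.726%, 2.27% and 0.964% were higher and 2.48%, 3.1% and 2.31% lower. In PP cells 0 of 9 did, beside 2.97% of all genes (0.606% higher and 2.36% lower), and Pcsk1 was left out there for having fewer than 100 UMIs. The median gene stood at −0.10, −0.08, −0.08 and −0.09 in α, β, δ and PP cells, and the median member at −0.04, −0.14, −0.03 and −0.08. As a set the 10 transcripts thus lay close to the other genes of these libraries. The largest ratios were in β and PP cells.

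Chga was lower in the multipara library in all 4 cell types. The log2 ratio of multipara to virgin was −0.25 (−0.26 to −0.24) in α cells, −0.27 (−0.28 to −0.27) in β cells, −0.25 (−0.29 to −0.21) in δ cells and −0.54 (−0.59 to −0.49) in PP cells. The sign was kept under each of the 13 alternative settings in α, β and δ cells and the 14 in PP cells. At 5000 UMIs per cell, the median went from 37 to 31 Chga UMIs in α cells, 33 to 29 in β cells, 19.5 to 16 in δ cells and 12 to 9 in PP cells. Among the genes whose levels followed Chga most closely over the 8 sums were the mitochondrial transcripts mt-Nd4, mt-Co3 and mt-Nd2 (Pearson's r of 0.97, 0.96 and 0.96 among 2773 genes). The median mitochondrial share of UMIs was 4.29% and 4.01% in α cells, 4.14% and 3.91% in β cells, 3.93% and 3.70% in δ cells and 3.31% and 3.30% in PP cells. Its part in the Chga values was not tested.

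Chgb and Scg3 had ratios of opposite sign in β cells. Chgb was higher in multipara β cells, at 0.36 (0.34 to 0.38), above 95.8% of all genes, with a thinned median of 4 UMIs against 3. Scg3 was lower, at −0.37 (−0.39 to −0.34), with 2 against 3 UMIs. In thinned β cells 94.9% and 96.0% had a Chgb UMI, and 95.1% and 90.6% a Scg3 UMI, beside 6.62% and 16.7% of immune cells for Chgb and 3.31% and 9.38% for Scg3. Without thinning, the shares of β cells were 96.2% and 88.5% for Chgb and 96.5% and 87.4% for Scg3. With each β cell weighted equally the Chgb ratio was 0.18 and the Scg3 ratio −0.45. In α cells the same genes had the opposite signs, −0.20 for Chgb and 0.12 for Scg3, and the difference between cell types was not tested.

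Of the enzymes and helpers, Pcsk1n was lower in the multipara library throughout, at −0.25 in α, −0.21 in β, −0.12 in δ and −0.15 in PP cells. It kept that sign in every alternative setting run. Relative to the median gene it stood at −0.16, −0.13, −0.04 and −0.06, so in δ and PP cells it lay near that median. Pcsk2 was at 0.13 in β cells and between −0.08 and 0.07 elsewhere. Pcsk1 was at 0.05 in β cells (0.00 to 0.09), and turned to −0.04 with cells weighted equally. In δ cells its interval ran from −0.03 to 0.68. Scg5 lay between −0.17 and 0.02 and Cpe between −0.11 and 0.01 over the 4 types. Pam was at −0.20 in β cells, but turned to 0.05 in cells thinned to 5000 UMIs.

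**Figure D4:**
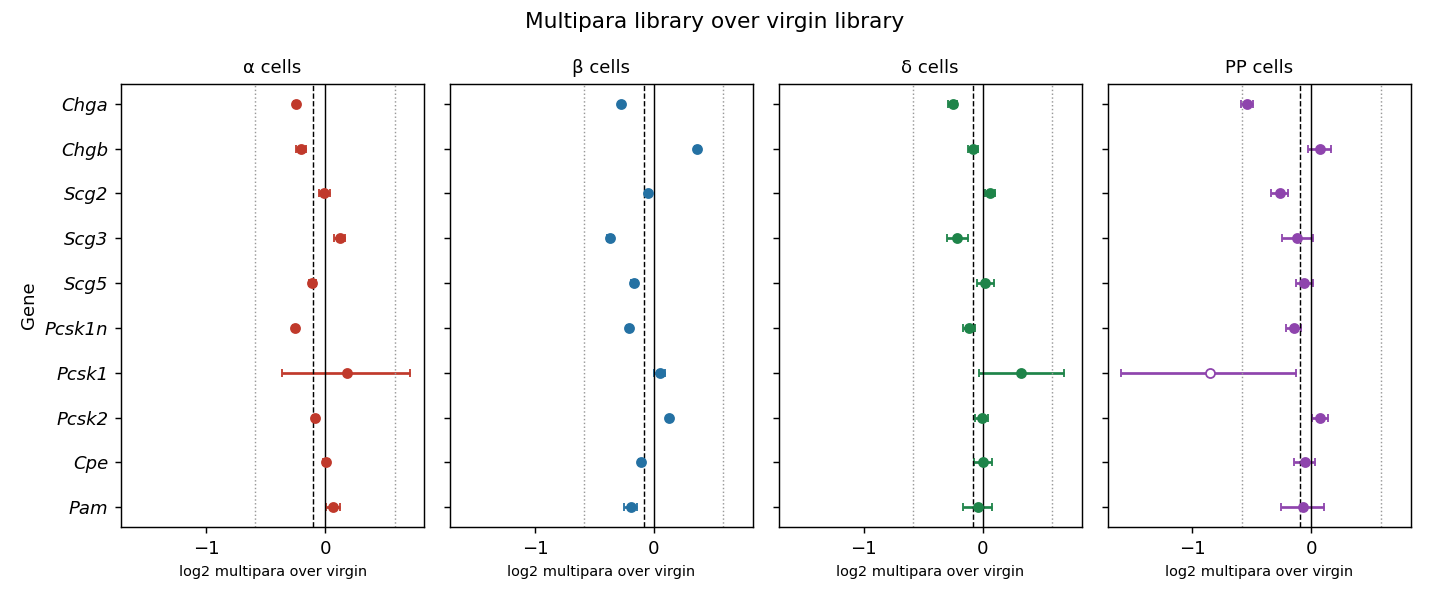
Log2 ratio of the multipara to the virgin library for the 10 transcripts in α, β, δ and PP cells, with exact 95% counting intervals. The dashed line is the median of all genes, dotted lines mark 1.5-fold, and the open symbol is Pcsk1 in PP cells with fewer than 100 UMIs. Chga lies at −0.25, −0.27, −0.25 and −0.54, left of the dashed line in each panel.

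The Chga values of PP cells rested in part on a few cells. At 5000 UMIs per cell the 4 highest of 87 virgin PP cells held 255, 224, 214 and 154 Chga UMIs and the fifth 30. Of 97 multipara PP cells the highest held 209, the next 91 and the third 43. All 4 of the virgin cells and the highest multipara cell carried at least 50 UMIs of Iapp, the amylin transcript, while the multipara cell with 91 did not. Without the 5 thinned cells with that much Iapp in each library, the mean was 12.2 in place of 21.3 in virgin and 10.8 in place of 13.0 in multiparous mice. Over all PP cells, leaving out those with 1% or more of UMIs from Iapp, chosen after seeing the data, gave a log2 ratio of −0.28. The value was also as low as −0.94 when cells with any immune, endothelial or stromal marker UMI were left out, and Chga passed 1.5-fold in PP cells under 8 of the 14 alternatives. The variance of Chga across thinned PP cells was 87.7 and 40.6 times its mean, against 14.8 and 10.4 times in β cells and 6.09 and 4.61 times in α cells.

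**Figure D5:**
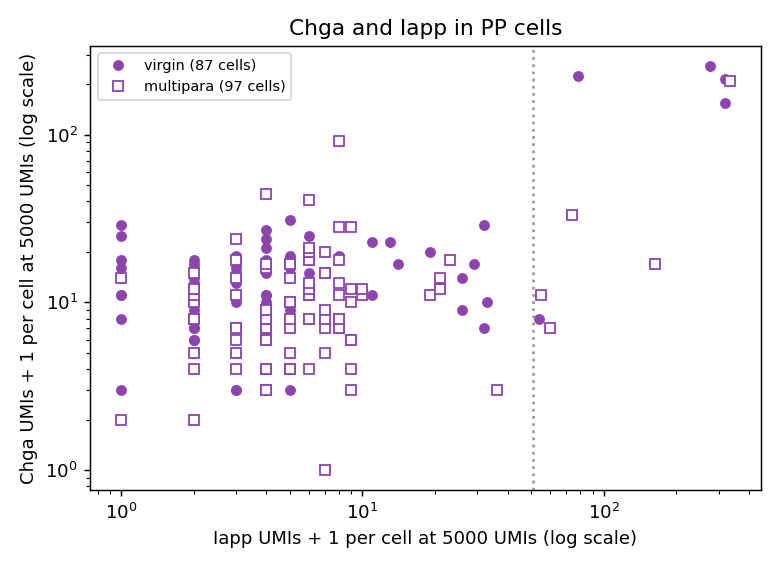
Chga against Iapp in single PP cells thinned to 5000 UMIs, both as UMIs + 1 on log scales, with filled circles for 87 virgin and open squares for 97 multipara cells. The dotted line marks 50 Iapp UMIs, and the 4 virgin cells above 150 Chga UMIs and the 1 multipara cell above 200 lie to its right.

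Of 37 other genes of granule cargo, processing, granule membrane and copper supply, 31 had enough UMIs in α, 34 in β, 27 in δ and 21 in PP cells to compare the libraries. None was lower by 1.5-fold, and 1 each was higher in β, δ and PP cells, beside 2.27%, 0.964% and 0.606% of all genes. Vgf, a further granin-like precursor, was higher in multipara β cells (4.46 and 6.74 CPM, log2 ratio 0.60). Rab3d, a granule GTPase, was higher in δ cells (16.5 and 25.1, 0.61) and Atp6v1a, a subunit of the proton pump, in PP cells (17.7 and 27.6, 0.64). The last 2 rested on 49 and 64 and on 38 and 64 UMIs. Between cell types, Resp18 and Gnas, which encodes the neuroendocrine secretory granule protein NESP among its products, were higher by 2-fold than in β cells in each of α, δ and PP cells. They stayed so with hormone UMIs left out. In all, 5 genes were higher and 3 lower in α than in β cells, 7 and 1 in δ cells and 2 and 5 in PP cells, of 34 with enough UMIs. Of all genes 11.2% were higher and 5.39% lower in α cells, 31.5% and 3.06% in δ cells and 4.55% and 7.05% in PP cells, so the count of higher genes in δ cells was below the background. With hormone UMIs left out the splits were 3 and 6, 2 and 6, and 2 and 8, beside 14.8%, 12.2% and 11.1% of all genes past 2-fold in either direction.

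The genes most like each member over the 8 sums, among 2773 genes that reached 50 CPM in at least 1 sum, are a description. They cover 4 cell types from the same 2 libraries on the scale of all UMIs, and were not sought with hormone UMIs left out. Chgb was most like Fam159b, Selenof and Nebl (Pearson's r of 0.99 each). Scg2 was most like Dio1 and Cabp7 (0.99 each), and Scg3 like Mtss1 (0.95). Scg5 was most like Gc and Cpq (0.99 each) after Tmem27, and Pcsk1n like Zcchc18, Eef2 and Med28 (0.99 each). Pcsk1 was most like Gng12, Mlec and Pclo (0.98 each). Pcsk2 and Cpe shared Vwde as the gene most like them (0.99 each), and Pam was most like Snrpe (0.998), Tbca (0.997) and Rps4x (0.996).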

How the data were processed

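Single cells of islets, dissociated with trypsin, were counted in 1 virgin and 1 multipara library. The deposited values were counts, that is UMIs per gene and barcode that the authors made with Cell Ranger 3.1.0. The submitters' processing notes also name Seurat 3.0. Cells with over 200 and under 6000 genes, under 60000 UMIs and under 10% mitochondrial UMIs were kept, as in the study, and doublets called by Scrublet (scanpy 1.11.5, 0.8% expected per 1000 cells) were removed. Counts were summed per library and gated type. Log2 ratios carry exact conditional binomial intervals and levels exact Poisson intervals, and shares of cells have exact Clopper-Pearson intervals. Genes needed 100 UMIs over both groups compared, and a gene at 0 in one group counted as past the fold. Cells were thinned to 5000 UMIs with a fixed seed, and shallower cells were left out. With 1 library per group no p-value was computed. Immune cells held under 5% hormone UMIs and at least 5 marker UMIs. The fold calls were tested on simulated data.

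The 10 members, the 37 other genes, the marker lists and the promoter motif were chosen with earlier results of these data known. All members were named, and of the other genes those past the fold. Genes alike were ranked by Pearson's r on log2(level + 10) over the 8 sums. Alternatives covered the filter, doublets, gate, thinning, cell weights, background, fold and scaling (TMM from edgeR 4.0.16, and median of ratios). Python 3.11.15 and scipy 1.17.1 were used.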

Additional observations from a re-analysis of the deposited data

Results flagged for a closer look

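For 4 members the multipara over virgin log2 ratio had opposite signs in different cell types where they had at least 100 UMIs. Their intervals lay wholly above, or wholly below, both 0 and the median of all genes. Pcsk2, at −0.08 in α and 0.13 in β cells, had intervals that left out 0. It was not among the 4, since the median gene stood at −0.10 in α cells. Chgb was at −0.20 in α cells and 0.36 in β cells. Scg2 was at 0.06 in δ cells and −0.27 in PP cells. Scg3 was at 0.12 in α cells, −0.37 in β cells and −0.21 in δ cells. Pam was at 0.07 in α cells and −0.20 in β cells, and the β value was 0.05 in thinned cells. The differences between cell types were not tested, since each rests on 1 library per group.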

How the results depend on the processing

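No paired analysis was possible because each group was 1 library, and for the same reason no replicate could be left out. Of 40 log2 ratios between the libraries, 22 kept their sign under every alternative run, and of 120 between cell types 89 did. In PP cells the count of members past 1.5-fold went from 0 to 1, Chga, with doublets kept, a gate purity of 50% or 90%, a hormone minimum of 2%, no cells with other markers, thinning, equal weights, or the immune level subtracted, and to 1, Pcsk1, without the minimum of 100 UMIs. Between α and PP cells 2 became 1 with a purity of 50%, no cells with other markers, thinning, equal weights, hormone UMIs left out, TMM, median of ratios, or PP cells with Iapp left out, the last chosen after seeing the data. Between PP and β cells 4 became 2 when thinned or equally weighted. Hormone UMIs left out, TMM and median of ratios each gave 3 in place of 6 between α and β cells and 1 in place of 3 between δ and PP cells. Between α and δ cells TMM gave 6 and median of ratios 5 in place of 3. At a lower limit of fold between the libraries, β cells had 2 members past it and δ and PP cells 1 each. At a limit of 1.5 between cell types, δ against β cells had 8, α against PP cells 6 and δ against PP cells 5. The share of all genes under each of these settings is not given here, so the counts are not read against a background. Already at 2-fold, 34.6% of all genes passed between δ and β cells. The cause of these shifts in count was not tested. Depth limits Pcsk1 outside β cells most, with 27 to 137 UMIs per type and library.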

Other observations

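A small share of β cells carried Ppy, the pancreatic polypeptide transcript, and these cells stood apart in several members. At 5000 UMIs per cell, 110 of 1686 virgin (6.52%) and 37 of 1411 multipara β cells (2.62%) had at least 10 Ppy UMIs. Their mean Chga was 77.0 against 36.9 UMIs in the other β cells of the virgin library and 69.1 against 31.6 in the multipara library. All thinned PP cells had a mean Chga of 21.3 and 13.0, and those without Iapp 12.2 and 10.8. The 5 PP cells with Iapp in each library had 170.8 and 54.6. The mean of the β cells with Ppy thus lay above that of all PP cells in both libraries. It lay below that of the PP cells with Iapp in the virgin library only. What kind of cell they are was not tested. Chgb was 7.83 against 3.65 and 9.84 against 4.78, and Pam was higher with log2 ratios of 1.35 and 1.59. Scg2 was nearly level, with log2 ratios of 0.12 and 0.01. The same cells also held more Pyy (a mean of 63.8 against 1.07 in the virgin library) and Sst (86.2 against 1.51), and less Ins1 (479.9 against 772). The Sst mean was carried by some of these cells in the virgin library, where their median was 2 against 0, while in the multipara library it was 77 against 0. Their median depth before thinning was 26970 against 31284 and 27001 against 34088.5 UMIs, and whether some are undetected doublets was not tested. Without them the ratio of multipara to virgin β cells was −0.23 for Chga and 0.39 for Chgb in thinned cells.

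β cells with a UMI of the stress gene Nupr1 (348 of 1686 virgin and 681 of 1411 multipara cells, thinned) had lower mean levels of Chga, with log2 ratios of −0.50 and −0.34 to the other β cells. Chgb was at −0.51 and −0.45 and Pam at −0.64 and −0.63, while Scg2 was at 0.05 in both libraries. The Chgb ratio of multipara to virgin was 0.49 among cells with Nupr1 and 0.44 among cells without. That of Chga was −0.06 and −0.22, against −0.27 over all β cells. That of Pam was 0.22 and 0.21 in these thinned cells, of the opposite sign to the −0.20 of the summed β cells. The part of the unequal numbers of Nupr1 cells in the β cell ratios was not tested beyond these values.

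Across single thinned cells of 1 type and library, Spearman's rho between pairs of members ran from −0.20 to 0.23 in α cells, −0.08 to 0.26 in β cells, −0.13 to 0.25 in δ cells and −0.21 to 0.40 in PP cells. These cells share a library and depth, and the values are descriptions only.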
